A study of Bos taurus with 31 samples.

Results

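The effect of a maternal vitamin and mineral supplement on the fetal liver was examined at the moderate level of maternal weight gain. The comparison set 7 fetal livers of the VTM_MG group against 8 of the NoVTM_MG group, which are 15 of the 31 libraries in the series. Libraries were assigned by their treatment label alone, so no measured value entered the choice. All fetuses were female and were taken on day 83 of gestation from Angus-cross heifers inseminated with sexed semen of a single sire.

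VTM_MG dams were fed 0.45 kg per day of ground corn carrying a commercial vitamin and mineral premix. NoVTM_MG dams went without the premix. Their corn carrier was entered here as 0 kg per day under the treatment label. On that entry, the supplement compared here is the corn and the premix together. A part of the corn alone in any difference was not tested. Feeding of the premix began between 71 and 148 days ahead of insemination and went on to tissue collection. From breeding, the dams of both groups also received a starch-based protein and energy supplement for a gain of 0.79 kg per day, so that supplement is common to both sides. The 16 remaining fetuses, 8 VTM_LG and 8 NoVTM_LG, came from dams on the basal ration with a target of 0.28 kg per day. They entered the model for its estimate of spread and are used below to ask whether the response differed between the levels of gain. The labels give neither the breeding group nor a sequencing batch for each fetus, so a part of either in any difference was not tested.

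The liver of an early fetus holds hepatoblasts and young hepatocytes next to developing blood cells, since it is a main site of blood formation before the bone marrow takes over. It stores and exports vitamins and trace minerals that cross the placenta, among them vitamin A, iron, copper, zinc and selenium. Retinoic acid made from vitamin A acts through nuclear receptors, and selenium and other trace minerals are parts of enzymes that remove peroxides and superoxide. Genes appear in the deposited table as Ensembl identifiers without names, and 0 of them could be matched to a symbol in the reference table used here. The genes of these pathways, and the markers of liver, blood and stromal cells, were therefore not analysed here. No function is stated for any gene below.

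The 15 libraries held between 13062894 and 18458776 counts each. Of the 27607 genes in the table, 14884 had a count in all 15 and 21090 in at least 1, and 14228 had enough counts over the series to be tested. VTM_MG libraries averaged 14585538 ± 594333 counts (SD, n = 7) and NoVTM_MG libraries 14950925 ± 1697122 counts (SD, n = 8). Of 7 library measures, none separated the groups in two-sided exact permutation tests over all 6435 splits. The smallest p was 0.265, for the first principal component, and the smallest adjusted p was 0.913. These tests compare means and do not show single distant libraries. On the second principal component NoVTM_MG replicate 3 lay at -39.3, with the next library at -10.5. Without it 0 genes passed in edgeR for VTM_MG against NoVTM_MG, with a smallest adjusted p of 0.133. Whole profiles were compared by the root mean square difference in log2 CPM (CPM, the counts of a gene relative to the scaled total of its library) over the tested genes. The median was 0.449 between fetuses within VTM_MG, 0.468 within NoVTM_MG and 0.456 between the groups. Fetuses of 1 group were thus about as far apart as fetuses of different groups. Of 15 libraries, 7 lay nearer to their own group than to the other, 5 of 7 in VTM_MG and 2 of 8 in NoVTM_MG. The SD between fetuses had a median of 0.2 in VTM_MG and 0.199 in NoVTM_MG on the log2 scale. It was the larger of the pair in VTM_MG for 50.7% of the tested genes.

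No gene differed between VTM_MG and NoVTM_MG past an adjusted p of 0.05. In the quasi-likelihood test of edgeR, 0 of 14228 tested genes passed (0%), and the smallest adjusted p was 0.955, shared by 4366 genes. The unadjusted p was under 0.05 for 650 genes, or 4.57% of those tested. Of these, 258 averaged higher in VTM_MG (1.81% of those tested) and 392 lower (2.76%). An even spread of p-values would put 711.4 genes under 0.05, and the count fell on either side of that with the libraries fitted. A fit of VTM_MG and NoVTM_MG alone gave 829 of 13747 tested genes. Leaving out VTM_LG replicate 4 gave 823, and leaving out VTM_LG replicate 7 as well gave 946. DESeq2 also called 0 genes, with 668 at an unadjusted p under 0.05 and a smallest adjusted p of 0.464. Limma voom called 0, with 1160 and 0.257. In bulk tissue, fewer cells of a type and less RNA per cell cannot be told apart, so neither could be read from any difference given here. Each fetus had its own dam, so the tests set the groups against variation from dam to dam.

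**Figure D1:**
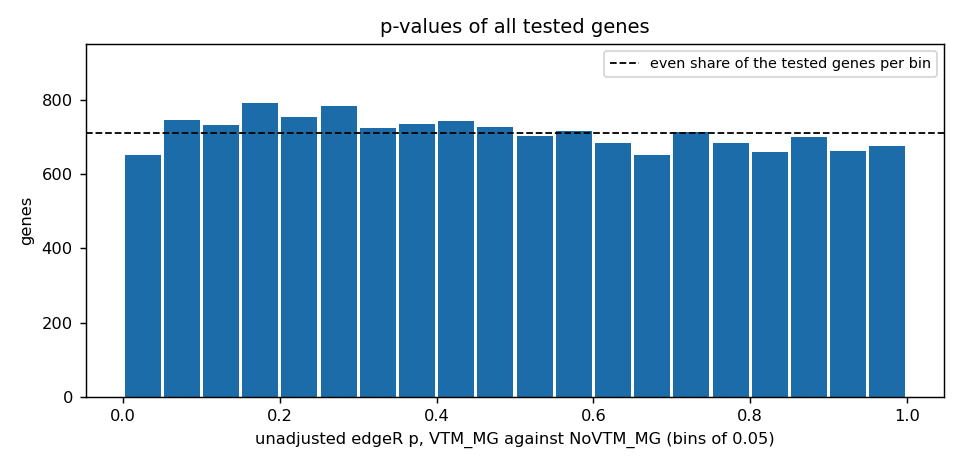
Number of tested genes in each bin of 0.05 of the unadjusted edgeR p for VTM_MG against NoVTM_MG, with a dashed line at the even share of 711.4 genes per bin. The first bin holds 650 genes and stands below the line, with all 31 libraries in the fit.

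Detection did not separate the groups. There were 0 genes with a count in all 7 VTM_MG and in none of the 8 NoVTM_MG libraries, and 0 with the reverse. The 10 genes with the largest share of counts took 32.7% ± 2.17 of the counts in VTM_MG (SD, n = 7) and 32.9% ± 1.51 in NoVTM_MG (SD, n = 8). Their log2 fold changes lay between -0.24 and 0.10. The gene with the largest share took 10.3% of counts in VTM_MG and 10.4% in NoVTM_MG (edgeR log2 fold change -0.03 with an SE of 0.118, adjusted p = 0.988). Among the 50 genes with the largest shares, 1 had an unadjusted p under 0.05, which is 2% beside 4.57% of all tested genes.

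The intervals around the fold changes show which sizes of difference the data allow for each gene. For 80.1% of the tested genes the whole 95% interval lay between a 1.5-fold lower and a 1.5-fold higher level, and for 34.1% it lay within 1.2-fold. Precision followed the number of counts. Among the 1195 genes at 100 CPM or more the interval stayed within 1.2-fold for 63.8%, and its median half-width was 1.12-fold. Among the 4708 genes between 1 and 10 CPM that share was 4.78%, and among the 1052 genes under 1 CPM it was 0%. Within 1.5-fold lay 66.7% of the intervals between 1 and 10 CPM and 1.71% of those under 1 CPM. These intervals are not adjusted for the number of genes, so passing the adjusted threshold asked for a larger difference relative to its SE.

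Direction also differed with the number of counts a gene drew. Among genes at 100 CPM or more, 712 of 1195 averaged lower in VTM_MG (59.6%), beside 49.8% of all tested genes. Of all tested genes, 4.57% had an unadjusted p under 0.05, with 2.76% lower and 1.81% higher. The stratum at 100 CPM or more held 43 lower and 4 higher genes at such a p, together 3.93% of its genes. Leaving out single libraries moved these counts to between 16 and 102 lower and between 1 and 23 higher. Of the 7273 genes between 10 and 100 CPM, 52% averaged lower, and 232 lower and 91 higher genes had an unadjusted p under 0.05. Between 1 and 10 CPM the lean was to the other side, with 2599 genes higher and 2109 lower. The median differences were small, at -0.02 on the log2 scale for the most counted genes and 0.02 for those between 1 and 10 CPM. The lean among the most counted genes stayed on the same side under both other scalings, at 58.7% and 57.7% lower, and when any of the 15 libraries was left out, at 56.2% to 62.2%. Genes are not independent of each other, and no test of this lean was made.

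**Figure D2:**
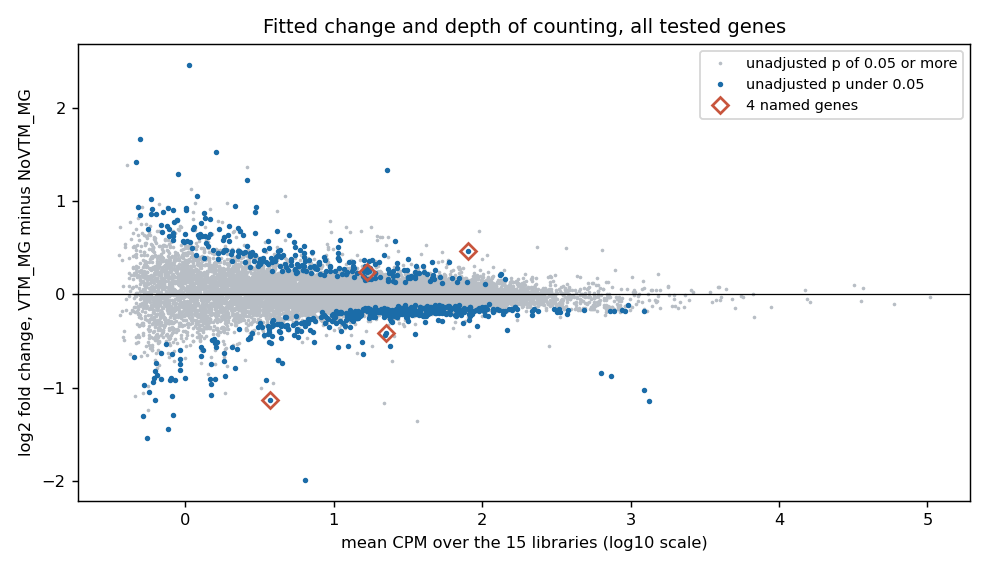
Fitted log2 fold change of VTM_MG minus NoVTM_MG (y axis) against mean CPM over the 15 libraries on a log10 scale (x axis), with 1 point per tested gene. Changes of more than 2-fold lie mostly at low CPM. A few points well above 100 CPM lie at about a 2-fold lower level in VTM_MG, and none passed the adjusted threshold.

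Of the genes that averaged higher in VTM_MG, ENSBTAG00000006921 had the smallest p. It ranged from 65.2 to 108 CPM in VTM_MG, with a median of 101, and from 50.2 to 96.8 CPM in NoVTM_MG, with a median of 67.6. The groups overlapped, yet 5 of 7 VTM_MG fetuses stood above every NoVTM_MG fetus. The overlap came from VTM_MG replicates 2 and 7 at the low end and NoVTM_MG replicate 3 at the high end. The difference was 1.38-fold, or 0.46 on the log2 scale with an SE of 0.112 (edgeR adjusted p = 0.955), and leaving out any library kept it between 0.41 and 0.55.

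ENSBTAG00000026915 came next among the higher genes, with a small but even difference. Its values in VTM_MG were between 17.3 and 18.9 CPM (median 18.3), and in NoVTM_MG between 13.5 and 17.4 CPM (median 15.3). VTM_MG fetuses were tightly grouped, with a coefficient of variation of 3.36% against 8.04% in NoVTM_MG. All 7 lay above the NoVTM_MG median, and NoVTM_MG replicate 6 reached into their range. The fitted difference was 1.18-fold, or 0.24 on the log2 scale with an SE of 0.0649 (edgeR adjusted p = 0.955).

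Of the genes that averaged lower in VTM_MG, ENSBTAG00000049916 had the smallest p and the largest difference of the 4 named genes. It was a lowly counted gene, at 1.18 to 3.53 CPM in VTM_MG (median 2.39) and 2.81 to 7.66 CPM in NoVTM_MG (median 4.56). These levels rest on 18 to 46 and 41 to 106 counts per library. VTM_MG replicate 2 was the 1 VTM_MG fetus inside the NoVTM_MG range, and the other 6 lay below it. The level was 2.19-fold lower in VTM_MG (edgeR log2 fold change -1.13 with an SE of 0.277, adjusted p = 0.955), with a 95% interval of -1.69 to -0.57.

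ENSBTAG00000047664 followed, at 15.4 to 25.5 CPM in VTM_MG (median 18.8) against 21.6 to 32.2 CPM in NoVTM_MG (median 25.8). Again 6 of 7 VTM_MG fetuses lay below the whole NoVTM_MG range, and VTM_MG replicate 2 did not. The log2 fold change was -0.41 with an SE of 0.104 (edgeR adjusted p = 0.955), and it lay between -0.49 and -0.36 when single libraries were left out. In all 4 named genes VTM_MG replicate 2 was the VTM_MG fetus nearest to the NoVTM_MG values. In ENSBTAG00000026915 VTM_MG replicate 4 stood at the same rounded value of 17.3 CPM. The 4 genes were picked by p from these same values, and the matching share over all tested genes is not given here.

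**Figure D3:**
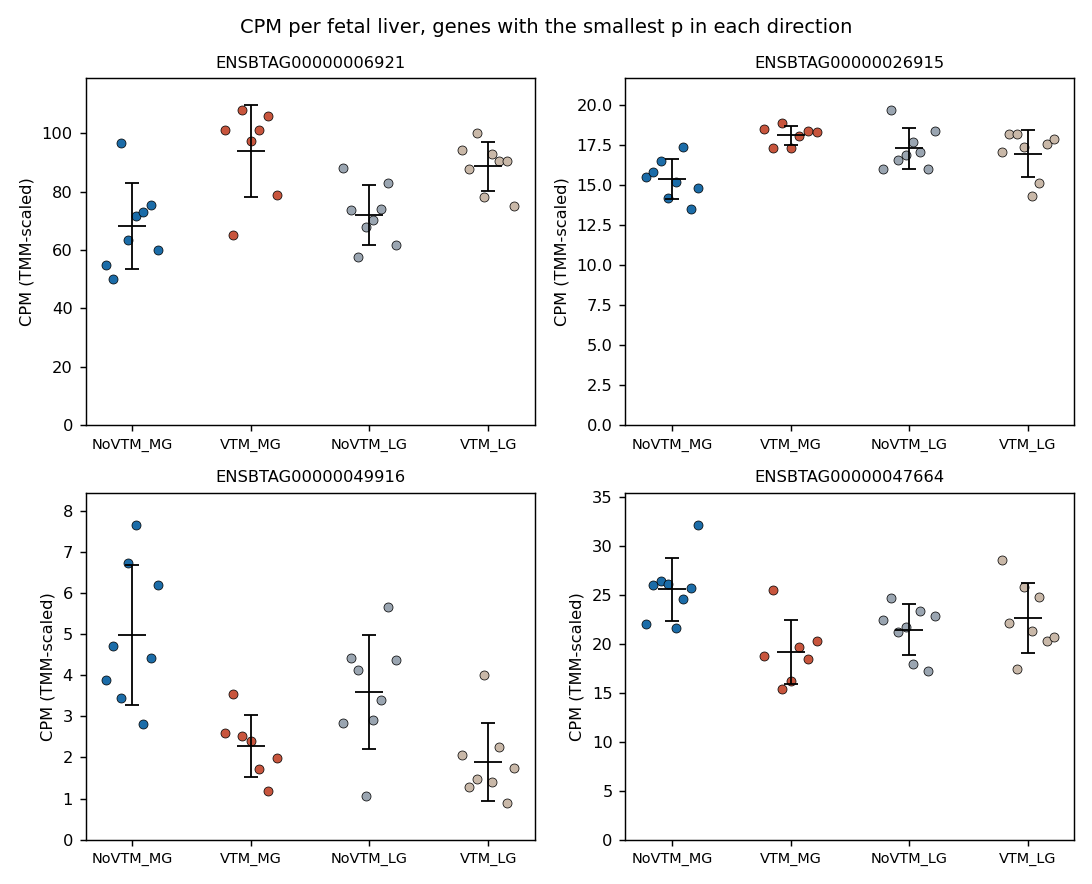
CPM of the 4 named genes in every fetal liver by group, with 1 point per fetus, a horizontal bar at the group mean and error bars of 1 SD (8 fetuses per group, 7 in VTM_MG). VTM_MG points sit mostly above NoVTM_MG in the upper panels and mostly below it in the lower panels, with overlap in each.

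ENSBTAG00000049916 did not vary alone. Deviations of log2 CPM from the group mean were correlated between genes over the 31 libraries, so that differences between groups did not enter. Of the other 14227 tested genes, 6 had a Pearson r of at least 0.7 with it, from 0.709 to 0.805. For the other 3 named genes this number was 0. The matching numbers for the rest of the tested genes are not given here, so 6 cannot be called many or few. All 6 averaged lower in VTM_MG than in NoVTM_MG and had an unadjusted p under 0.05, with log2 fold changes of -1.15 to -0.73 and a median of -0.95. For comparison, 4.57% of all tested genes had such a p. None passed the adjusted threshold (adjusted p = 0.955 for each in edgeR). The group was looked for after the values of ENSBTAG00000049916 had been seen. Genes that vary together between fetuses also share their chance differences between groups, so the 6 do not add evidence to its own difference.

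Of these 6 genes, 4 were at 100 CPM or more. The most counted averaged 1780 ± 925 CPM in the 8 NoVTM_MG fetuses (SD) and 804 ± 238 CPM in the 7 VTM_MG fetuses (SD), a 2.22-fold lower level (edgeR log2 fold change -1.15 with an SE of 0.323, adjusted p = 0.955). Its values reached from 469 to 1160 CPM in VTM_MG and from 801 to 3480 CPM in NoVTM_MG, so the groups overlapped. The next averaged 1610 ± 625 and 790 ± 271 CPM in the same order, a 2.04-fold lower level. Of the genes at 100 CPM or more, these were the 2 with a fitted difference of at least 2-fold. The remaining 2 abundant genes averaged 932 ± 416 against 508 ± 197 CPM and 799 ± 262 against 445 ± 139 CPM. NoVTM_MG replicate 5 held the highest NoVTM_MG value in 5 of the 6 genes, and VTM_MG replicate 2 the highest VTM_MG value in all 6. The same 2 fetuses were highest in their groups for ENSBTAG00000049916. Because the 6 genes were chosen for varying with it, this likeness comes with the choice. When any of the 15 libraries was left out, the log2 fold changes of the first 2 stayed between -1.26 and -0.94 and between -1.15 and -0.91.

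The largest fitted changes belonged mostly to genes with few counts. In all, 32 genes had a fitted difference of at least 2-fold, 13 higher and 19 lower in VTM_MG. Of these, 11 averaged under 1 CPM in both groups and 5 reached 10 CPM in at least 1 of them. All 32 had overlapping groups, and 21 had an unadjusted p under 0.05, beside 4.57% of all tested genes. The 32 were picked by the size of the difference in these same values, which favours a small p. For 29 of them a fit could be had without each of the 15 libraries in turn. Of these 29, the difference stayed at 2-fold or more throughout for 7 genes, and shrank below 1.5-fold or turned for 7. In 1 gene the direction hung on a single fetus. It was at 334 CPM in NoVTM_MG replicate 7 and at 2.71 to 30 CPM in the other NoVTM_MG fetuses, and its log2 fold change turned from -1.35 to 0.92 without that library.

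Complete separation of the groups was rare. In 3 of 14228 tested genes (0.0211%) all VTM_MG values lay below all NoVTM_MG values, and in 0 genes above them. The differences were small, at -0.22, -0.23 and -0.15 on the log2 scale. The first of the 3 was ENSBTAG00000007728, at 56.6 to 69.2 CPM in VTM_MG and 71.5 to 83.1 CPM in NoVTM_MG. The others spanned 11.1 to 12.4 against 12.5 to 15.8 CPM, and 41.4 to 51.5 against 52 to 57 CPM. The edgeR adjusted p was 0.955 for all 3. At low gain 2 genes were separated in this way (0.0141%), and none of them was among the 3.

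The number of genes at an unadjusted p under 0.05 moved in both directions as single fetuses were left out. It was 957 without VTM_MG replicate 2, 900 without VTM_MG replicate 5 and 884 without NoVTM_MG replicate 6, against 650 with all libraries. It was 476 without VTM_MG replicate 3, 477 without VTM_MG replicate 4, 480 without NoVTM_MG replicate 2 and 518 without VTM_MG replicate 1, and all of the 15 are plotted by the library left out. Among the 650 genes, VTM_MG replicate 2 held the VTM_MG value nearest to NoVTM_MG in 195, where an even share among the 7 fetuses would be 92.9. VTM_MG replicate 5 did so in 149. On the other side, NoVTM_MG replicate 6 held the NoVTM_MG value nearest to VTM_MG in 172, against an even share of 81.2. The 650 genes were picked by p from these same values, and the matching counts over all tested genes are not given here. Genes also vary together, so the even shares are no test, and these counts describe the list more than the fetuses. In each of these fits 0 genes passed the adjusted threshold.

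**Figure D4:**
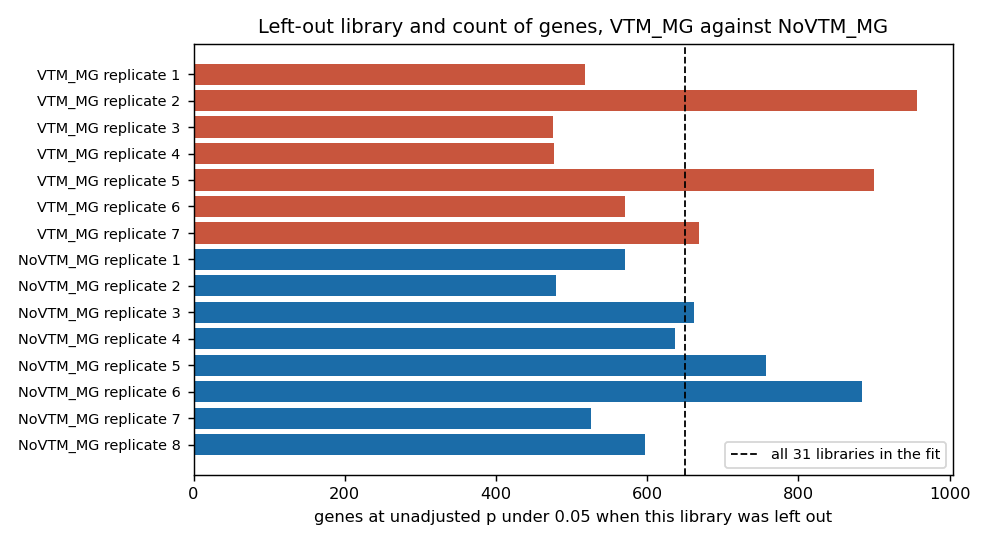
Genes at an unadjusted edgeR p under 0.05 (x axis) when each of the 15 compared libraries (y axis) was left out of the fit, with a dashed line at the 650 genes found with all libraries. The counts run from 476 to 957.

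The same supplement was also given at low gain. VTM_LG against NoVTM_LG shares no library with the comparison at moderate gain, and 0 genes passed there in edgeR, with 1174 (8.25%) at an unadjusted p under 0.05. ENSBTAG00000006921 was higher with the supplement there too, at 74.9 to 100 CPM (median 90.5) against 57.6 to 88 CPM (median 71.9). Its log2 fold change was 0.30 with an SE of 0.109 (edgeR adjusted p = 0.601). ENSBTAG00000049916 was lower at low gain as well, at 0.889 to 4 CPM (median 1.61) against 1.06 to 5.66 CPM (median 3.76). Its log2 fold change was -0.93 with an SE of 0.275 (edgeR adjusted p = 0.601). Of the 6 genes that varied with it, 5 averaged lower with the supplement at low gain, within a range of -1.23 to 0.24. These 6 were chosen for varying with ENSBTAG00000049916 over all 31 libraries, those at low gain included. They share its chance differences there too and add no evidence to its difference at low gain. The other named genes had little difference at low gain, with a log2 fold change of -0.03 (SE 0.0626) for ENSBTAG00000026915 and 0.08 (SE 0.1) for ENSBTAG00000047664.

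Among the 650 genes at an unadjusted p under 0.05 for moderate gain, 65 also had one at low gain. They made up 10% of the list for moderate gain, beside 8.25% of all tested genes with such a p at low gain. They were 5.54% of the list for low gain, beside 4.57% of all tested genes at moderate gain, and 20 of them had the same direction in both. Of the 650 genes, 30.2% had the same direction at low gain, beside 39% of all tested genes. VTM_LG replicates 4 and 7 stood apart on the first principal component of all 31 libraries, at 63 and 37.9 where the other 29 lay between -20.2 and 6.69. Without them the overlap was 46 genes, or 4.86% of 946 and 8.63% of 533. Of all tested genes, 3.73% then had such a p at low gain and 6.63% at moderate gain. The same direction was found in 22 of the 46, in 35% of the 946 and in 44.9% of all tested genes.

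Whether the response differed between moderate and low gain was tested by the interaction. In edgeR 0 genes passed, with 1516 (10.7%) at an unadjusted p under 0.05. That number was 920 without VTM_LG replicates 4 and 7. DESeq2 and limma voom each called 0 genes, with 1563 and 1746 at an unadjusted p under 0.05. None of the 4 named genes was shown to respond differently at the 2 levels of gain. The interaction was 0.16 for ENSBTAG00000006921 (SE 0.157, adjusted p = 0.722 in edgeR) and -0.20 for ENSBTAG00000049916 (SE 0.391, adjusted p = 0.872). It was 0.27 for ENSBTAG00000026915 (SE 0.0902) and -0.49 for ENSBTAG00000047664 (SE 0.145), and the edgeR adjusted p was 0.431 for both. The 4 genes were chosen by their p at moderate gain, and that difference is a part of the interaction. Their interactions are therefore no independent test.

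The smallest interaction p belonged to ENSBTAG00000007728, which was lower with the supplement at moderate gain and higher with it at low gain. Its medians were 68.8 CPM in VTM_MG and 77.3 in NoVTM_MG, against 76.7 in VTM_LG and 70.5 in NoVTM_LG. The separation of the groups was complete at moderate gain, while at low gain VTM_LG spread from 62.3 to 90.1 CPM around NoVTM_LG at 62.8 to 72.7. The 2 highest VTM_LG values, 90.1 and 85.4 CPM, were those of replicates 4 and 7, which stood apart on the first principal component. ENSBTAG00000006320 had the smallest p in the other direction. It ranged from 45.4 to 55.7 CPM in VTM_MG and from 41.3 to 51.1 in NoVTM_MG, and from 33.5 to 51.2 in VTM_LG and 46.5 to 58.2 in NoVTM_LG. The 2 interactions were -0.38 (SE 0.0872) and 0.40 (SE 0.0993) on the log2 scale, and the edgeR adjusted p was 0.431 for both. Both genes were picked by their interaction p from these same values, which favours opposite directions at the 2 levels of gain. Without VTM_LG replicates 4 and 7 they were -0.31 and 0.40, with an edgeR adjusted p of 0.758 for both.

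**Figure D5:**
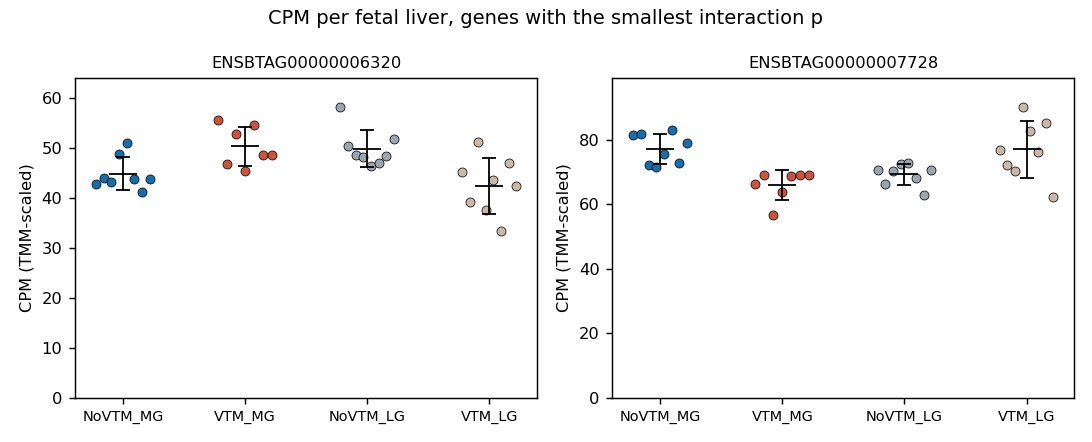
CPM of the genes with the smallest interaction p in each direction, with 1 point per fetus, a horizontal bar at the group mean and error bars of 1 SD (8 fetuses per group, 7 in VTM_MG). The supplement goes with higher values at moderate gain and lower values at low gain for ENSBTAG00000006320, and with the reverse for ENSBTAG00000007728. Picking genes by this p favours opposite directions, and neither gene passed the adjusted threshold.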

How the data were processed

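Per the labels, total RNA of fetal liver was made into strand-specific libraries and sequenced in pairs of 150 bp reads. The submitters' processing notes name CASAVA, FastQC 0.11.8, MultiQC 1.9, STAR 2.7.3a and edgeR, without roles. For the counting program, genome build, annotation and strand setting, nothing was given in the sources used here. The authors deposited raw counts per Ensembl gene, not normalized. Columns were matched to samples by title.

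Counts of all 31 libraries were fitted together in edgeR 4.0.16 (R 4.3.3) with 1 mean per group, TMM scaling, and filterByExpr with a minimum count of 10 and a minimum total of 15. Benjamini-Hochberg adjustment ran over all 14228 genes. Standard errors come from the fold change and its F statistic. Log2 CPM used a prior count of 2. The code was checked on simulated counts, drawn independently for each gene, with 200 genes changed. That check does not show how small a difference could be found in these libraries. Each of the 105 pairs of the 15 libraries differed beyond counting noise, with a chi-square of 6.89 or more per degree of freedom.

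Alternatives were other scalings, other filters, DESeq2 1.42.0, limma 3.58.1 voom, smaller fits, a robust fit, an adjusted p of 0.10 and leaving out libraries. Replicate numbers follow sample order and are names only. The comparison, rules and lists were chosen with earlier results of these data known. Named genes are those with the smallest p in each direction, 2 for the comparison and 1 for the interaction, that reached 1 CPM in VTM_MG or NoVTM_MG. Other genes are given without identifier. In all, 27 gene lists were not run for want of symbols.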

Additional observations from a re-analysis of the deposited data

Results flagged for a closer look

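Of 38 sets of values checked (the named genes in each group and the library measures in the 2 groups compared), 5 held a fetus far from the rest of its group. Chance flags about 1 in 20 such sets. In ENSBTAG00000047664, NoVTM_MG replicate 8 stood at 32.2 CPM with the next fetus at 26.4. In ENSBTAG00000007728, VTM_MG replicate 3 stood at 56.6 CPM with the next at 63.8. VTM_MG replicate 4 had 17801 genes with a count, against 17501 in the next VTM_MG library. At low gain, VTM_LG replicate 4 stood at 4 CPM in ENSBTAG00000049916 with the next at 2.26, and NoVTM_LG replicate 1 at 58.2 CPM in ENSBTAG00000006320 with the next at 51.9.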

How the results depend on the processing

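No paired analysis was possible because the labels carry no replicate numbers shared between groups. The count of genes past the threshold stayed at 0 for VTM_MG against NoVTM_MG in 41 of 41 alternatives, with smallest adjusted p-values of 0.133 to 1. It stayed at 0 for the interaction in 40 of 40 and for VTM_LG against NoVTM_LG in 41 of 41. The genes at an unadjusted p under 0.05 numbered 1067 of 21921 with no low-count filter and 1160 in limma voom, and 476 to 957 without single libraries. All 6 named genes kept their direction and passed in none of the alternatives. Their adjusted p-values started at 0.133 for ENSBTAG00000006921, 0.323 for ENSBTAG00000026915, 0.257 for ENSBTAG00000049916 and 0.209 for ENSBTAG00000047664, and for the interaction at 0.131 for ENSBTAG00000007728 and 0.175 for ENSBTAG00000006320. The share of genes with the larger SD in VTM_MG was 46% to 55.3% without single libraries, so neither group was the more variable throughout. Of 7 library measures, 0 passed in any of 15 such repeats. Precision was lowest for genes under 1 CPM, where the median half-width of the unadjusted interval was 1.62-fold.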

Other observations

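The 2 most counted genes that varied with ENSBTAG00000049916 were examined in pairs with it, as a pattern noticed in these data. Over 31 libraries, with group means removed, log2 CPM of ENSBTAG00000049916 and of the gene at 790 CPM in VTM_MG had a Pearson r of 0.804 and a Spearman rho of 0.803. Each had a permutation p of 1e-05, the smallest that 100000 permutations can give. Without the 2 fetuses farthest from the median of ENSBTAG00000049916, r was 0.764. It was 0.811 within the 15 fetuses at moderate gain and 0.803 within the 16 at low gain. With the gene at 804 CPM in VTM_MG, r was 0.714 and rho 0.737 (permutation p = 2e-05 each), and r was 0.676 without the 2 farthest fetuses. Between the 2 abundant genes r was 0.844 and rho 0.865 (permutation p = 1e-05 each), and r was 0.832 without the 2 farthest. After adjustment over the 3 pairs each p was 2e-05. The pairs were chosen for their high r among all tested genes over these same libraries, so these p-values are too small. For the same reason the r values within each level of gain, and without the farthest fetuses, do not test the relation anew. The relation could not be checked within sequencing batches or breeding groups, which the labels do not give per fetus.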
